A study of Mus musculus with 4 samples.

Results

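The ABC transporter genes encode membrane pumps and related proteins that are driven by ATP binding and hydrolysis. They were taken here by name, as every row of the deposited expression matrix whose symbol is Abc, a subfamily letter from a to g and a number. The rule found 35 genes of the 14405 in the matrix. Bulk RNA sequencing had been run on dorsal root ganglia, which hold the cell bodies of sensory neurons that serve trunk and limbs. The mice were 10 weeks old and their strain is given as mixed. The 2 wild type samples were compared with 2 samples of genotype Prdm12-/Fl; AvilCreERT2/+, called mutant here. These carried 1 null and 1 floxed allele of Prdm12, a transcription factor gene of the pain-sensing neuron lineage, and 1 copy of a tamoxifen-inducible Cre expressed from Avil. Avil is a sensory neuron gene, so the Cre is directed at neurons, while a whole ganglion also holds glia, vessels, meningeal covering and blood. No tamoxifen dose or time is given in the sources used here, and whether each sample was its own animal is not stated.

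ABC proteins share a nucleotide-binding fold with a Walker A loop, which holds the phosphates of ATP, and most also have membrane-spanning segments through which a substrate moves. Subfamily A mostly moves lipids, subfamily B holds drug pumps and organelle transporters, subfamily C holds anion pumps and the sulfonylurea receptors, and subfamily D serves peroxisomes and lysosomes. Subfamilies E and F lack membrane segments and act in translation, and subfamily G moves sterols and drugs. In the capillaries of brain and nerve and in the meninges, Abcb1a (P-glycoprotein) and Abcg2 (breast cancer resistance protein) are known for pumping drugs out of the tissue.

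A script translated the longest coding frame of each member's transcripts in GENCODE M21 and found the Walker A pattern in 35 of 35. The stretch around it is shown for Abcb1a and Abcb1b, the rodent pair of P-glycoprotein genes, because sequence shared by this pair decides how far their levels can be told apart. The 24 bases that encode Walker A are in capitals. Coding bases are counted from 1 at the start codon, and the stretch runs from 1249 to 1308 in Abcb1a and from 1258 to 1317 in Abcb1b.
Abcb1a: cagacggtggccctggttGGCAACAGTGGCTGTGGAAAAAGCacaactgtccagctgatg
Abcb1b: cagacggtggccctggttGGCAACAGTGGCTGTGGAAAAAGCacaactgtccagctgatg
Both lines are the same at all 60 bases. In the 60 aligned bases where the pair differs most, at 1913 to 1972 of Abcb1a and 1922 to 1981 of Abcb1b, 25 bases differ, shown in capitals.
Abcb1a: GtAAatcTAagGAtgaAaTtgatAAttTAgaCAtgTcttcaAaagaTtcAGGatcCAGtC
Abcb1b: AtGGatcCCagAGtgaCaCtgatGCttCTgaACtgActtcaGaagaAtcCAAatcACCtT
Over 3822 aligned coding bases the pair was 88.0% identical. Of the 50-base stretches of the Abcb1a transcript, 15.5% also occur in Abcb1b, and 18% of those of Abcb1b occur in Abcb1a. For the other members this share was at most 3.15%, in Abcb4, which has its stretches in common with Abcb1a. How the authors' counting divided such reads is not stated in the sources, so the single values of Abcb1a and Abcb1b are uncertain. These shares do not limit the error. Abcb1a had a mean of 14.6 FPKM over the 4 samples and Abcb1b of 1.38 FPKM. A small part of the Abcb1a reads given to Abcb1b could therefore make up much of its value.

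GENCODE M21 lists 50 protein-coding genes under the same naming rule, and the 35 analysed here were 10 of 16 in subfamily A, 8 of 10 in B, 6 of 10 in C, 4 of 4 in D, the only gene of E, 3 of 3 in F and 3 of 6 in G. The other 15 were not analysed here. Among them were Abcc2, a pump of bile and kidney, Abcc8, the sulfonylurea receptor of pancreatic beta cells and neurons, and Abcg5 and Abcg8, the sterol pump pair of liver and gut. Every row of the matrix had at least 1 FPKM (fragments per kilobase of transcript, scaled to the mapped fragments of the library) in at least 1 sample, so a member is in the family as described only because 1 sample reached that level. This is the measured value that chose the members. The members with the lowest top value were Abcb1b, at 1.53 FPKM, Abcc3, at 1.58 FPKM, and Abca4, at 1.72 FPKM. Abca4 reached 1 FPKM in wild type only, so its place among the members rests on the group in which it was higher.

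By level in FPKM, which is scaled to transcript length, the members spanned a wide range. The highest mean over the 4 samples was that of Abca8a, a subfamily A gene of lipid transport, at 54.1 FPKM. It was followed by Abcg2 at 38.6 FPKM and by the translation factor genes Abcf2 at 34 FPKM and Abce1 at 30.1 FPKM. Mean levels were at least 20 FPKM for 10 members and under 5 FPKM in both groups for another 10. The median member stood at 6.83 FPKM, against 9.52 FPKM for all genes tested. Summed over the family, the levels were 433.5 and 437.3 FPKM in wild type 1 and 2 and 415.5 and 443.0 FPKM in mutant 1 and 2. The family sum therefore overlapped between the groups.

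**Figure D1:**
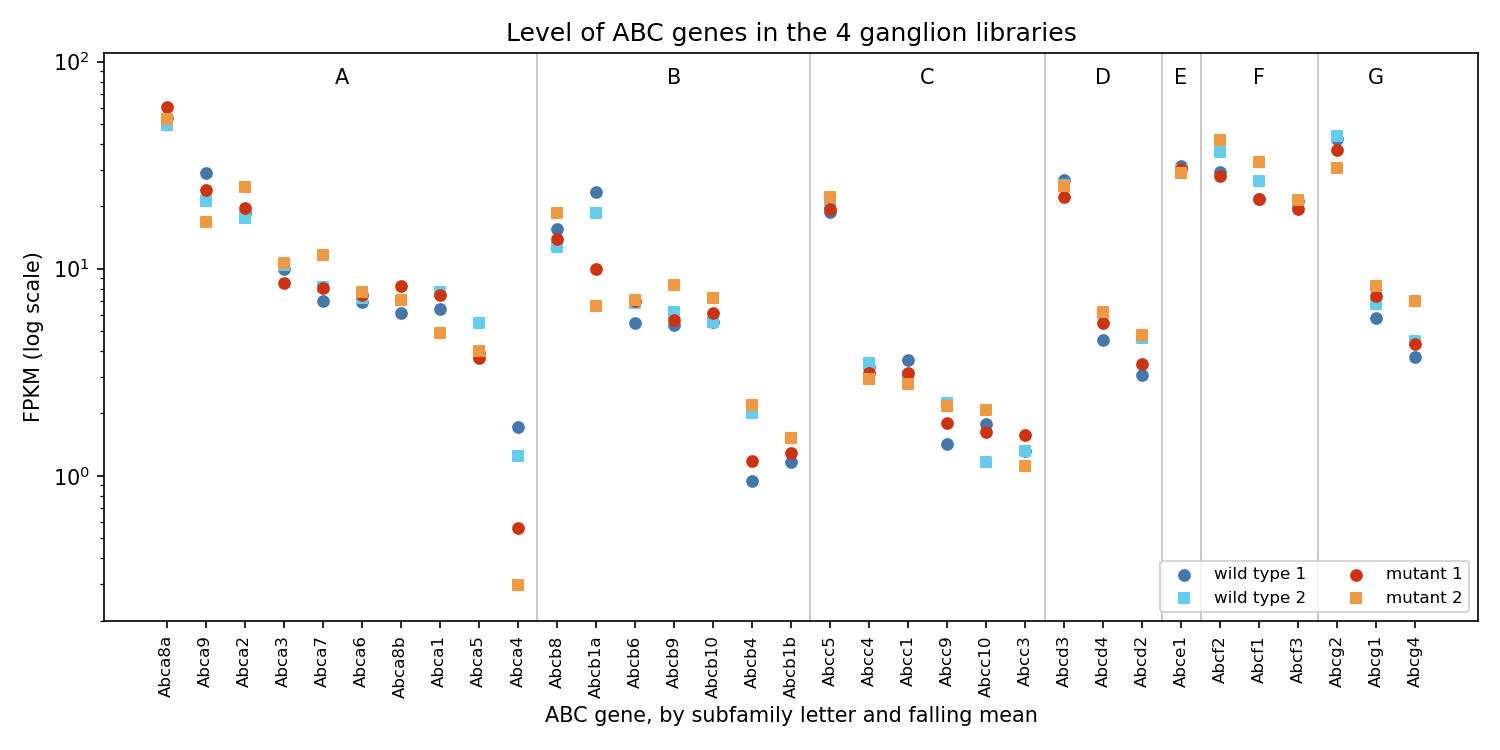
FPKM of ABC genes on a log axis, grouped by subfamily letter and sorted by mean within it, with 1 point per library (blue circles and squares for wild type 1 and 2, red circles and orange squares for mutant 1 and 2). Both mutant points of Abca4 and Abcb1a lie well below both wild type points, and for most other genes the 4 points lie close together.

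Mutant 2 was the library in which members most often stood at an extreme. It was the highest of the 4 for 18 of 35 members (51.4%) and the lowest for 11 (31.4%), where it was the highest for 36.4% and the lowest for 31.3% of all genes tested. The summed markers of adipocytes and of skeletal muscle, tissues that adjoin a dissected ganglion, were also highest there. The adipocyte sum was 463 and 739.6 FPKM in wild type and 269.9 and 2276 FPKM in mutant 1 and 2, and the muscle sum was 199, 1650, 85.0 and 3462 FPKM in the same order. The muscle markers did not all follow their sum: the myosin genes Myh1 (2.71, 28.4, 1.06 and 3.62 FPKM) and Myh2 (1.05, 11.3, 0.436 and 0.861 FPKM) were highest in wild type 2. The part of these tissues in the members' values was not tested. For some members the difference without mutant 2 is given as well. Of 8 satellite glia markers 1 was higher and 2 lower in both mutants (37.5%), and of 9 macrophage markers 0 and 1 (11.1%). Over all genes tested, 32.1% did not overlap between the groups. Neuron markers were present in every library (sums of 4108, 5736, 4449 and 7481 FPKM), as labelled.

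Prdm12, the targeted gene, was at 7.58 and 10.7 in wild type against 1.05 and 1.5 FPKM in the mutants, lower in both, as the labels have it. Avil, the gene the Cre is named for, was at 78.4 and 124 against 102 and 164 FPKM. Differences were tested with limma on log2(FPKM + 1), mutant minus wild type, over the 14040 genes whose wild type or mutant mean reached 1 FPKM, with Benjamini-Hochberg adjustment over all of them. All 35 members passed that limit on low values. An exact permutation test of 2 against 2 cannot give a p under 0.333. Of all genes tested, 0 (0%) passed an adjusted p of 0.05, and 0 of 35 members did. At an unadjusted p under 0.05 there were 2 members, Abcb1a and Abca4, both lower in the mutants, beside 4.36% of all genes (1.35% higher and 3.01% lower). Abca4 was in the matrix and over the limit on low values through wild type only, so its count here is a description and supports nothing. The authors' deposited table of called genes, which used limits of its own, holds these same 2 members, where 1.03% of the matrix rows were on it and 0.896% were on it as lower.

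The family as a whole had a median log2 difference of 0.08, against -0.01 over all genes tested. Its median size of difference, regardless of sign, was 0.15, against 0.13 over all genes, and 30 of 35 members lay within 0.3 of 0. Both mutants were above both wild types for 5 members (Abca2, Abca6, Abcb6, Abcb10 and Abcg1) and below them for 6, among them Abca4, Abcb1a, Abcc4, Abcd3 and Abcg2. In all, 31.4% of members did not overlap between the groups, where 32.1% of all genes did not (12.5% higher and 19.6% lower), so the share was near the background. Leaving out wild type 1 brought the family median to -0.021, and leaving out mutant 2 to -0.024.

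By subfamily letter, the median log2 differences were small and held both signs. Subfamily A (10 genes) stood at 0.005, B (8 genes) at 0.15, C (6 genes) at 0.046, D (4 genes) at -0.022 and F (3 genes) at 0.061. The only E gene was at -0.045, and the 3 G genes had the highest median, 0.28, with 1 gene higher and 1 lower in both mutants. In B, 2 were higher and 2 lower without overlap, in A 2 and 1, in C and D 0 and 1, and in E and F 0 and 0. Over all genes the shares were 12.5% higher and 19.6% lower, and with so few genes per letter nothing is read from these counts. Summed FPKM of subfamily B was 62.9 and 59.3 in wild type and 50.2 and 56.1 in the mutants, and that of G was 52.0 and 55.0 against 49.1 and 45.9. These are the subfamilies of Abcb1a and Abcg2, and their sums did not overlap. The gaps were carried by these 2 genes, since the medians of B and G, 0.15 and 0.28, were above 0. Subfamily A summed to 142.7 and 135.6 FPKM against 148.2 and 140.7 FPKM and overlapped, as did C, D and F.

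**Figure D2:**
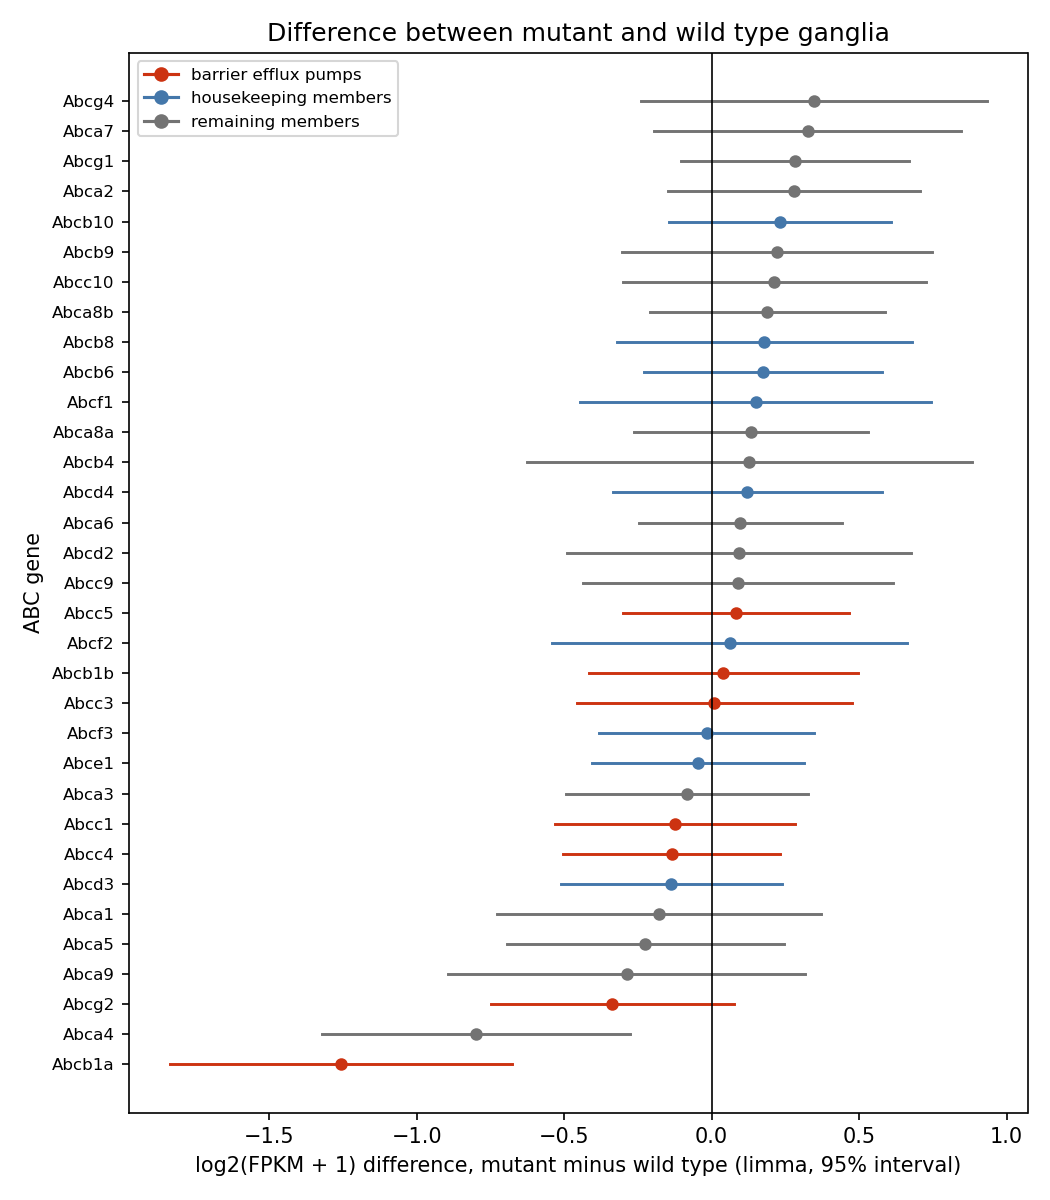
Difference between mutant and wild type in log2(FPKM + 1) for ABC genes, with the 95% interval from limma as a line, sorted by size. Barrier efflux pumps are red, housekeeping members blue and the remaining members grey, and the intervals of Abcb1a (-1.84 to -0.68) and Abca4 (-1.32 to -0.28) are the ones that lie wholly below 0, before any adjustment for the number of genes.

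The barrier efflux pumps were taken as Abcb1a, Abcb1b, Abcg2 and Abcc1 to Abcc5, of which 7 of 8 were in the matrix. They stood apart from each other rather than moving as a group. Abcb1a was at 23.4 and 18.5 FPKM in the 2 wild types, against 9.93 and 6.62 in mutant 1 and mutant 2, respectively. Both mutants were far below both wild types, without overlap. The group means were 20.9 ± 3.48 and 8.27 ± 2.34 FPKM (SD, n = 2 each), 2.53-fold lower in the mutants. On the log2 scale the mutants were at -1.26 relative to wild type (standard error 0.23, 95% interval -1.84 to -0.68, limma adjusted p = 0.481). In the authors' deposited table the log2 change is -1.34 and q is 0.00742. With each library left out in turn, the log2 difference stayed below 0, from -1.52 without mutant 1 to -0.996 without mutant 2. In bulk tissue, fewer cells of a type and less RNA per cell cannot be told apart.

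Abcb1b, the other P-glycoprotein gene, was at 1.16 and 1.53 in wild type against 1.29 and 1.52 FPKM in the mutants. Its samples overlapped and its log2 difference was 0.04. Abcb1a (ENSMUSG00000040584.8) lies on chromosome 5 at 8660077 to 8748575, on the plus strand in mm10, and Abcb1b (ENSMUSG00000028970.9) follows 49.6 kb downstream, at 8798147 to 8866315. The third gene of this cluster, Abcb4, which encodes the phosphatidylcholine pump of bile, begins 27.4 kb further on. Abcb4 was at 0.939 and 2.01 in wild type against 1.18 and 2.19 FPKM in the mutants. Of the 3 neighbours, then, Abcb1a alone was lower in both mutants by the listed values. Those of Abcb1b and Abcb4 may hold reads from sequence shared with the more abundant Abcb1a. The RefSeq promoter window of Abcb1a starts 92986 bases from the GENCODE start and was not used.

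Abcg2 was at 42.4 and 43.7 FPKM in the 2 wild types, against 37.4 and 30.8 in mutant 1 and mutant 2, respectively. It was the most abundant of the pumps in every library, and both mutants were below both wild types. The means were 43.1 ± 0.913 and 34.1 ± 4.67 FPKM (SD, n = 2 each), a log2 difference of -0.34 with an interval of -0.75 to 0.08 (limma adjusted p = 0.994). Without mutant 2 the difference was -0.20.

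The multidrug resistance-associated proteins, which export conjugated anions and nucleotides, differed little. Abcc5, an exporter of cyclic nucleotides and the most abundant of them, was at 18.8 and 20.3 in wild type against 19.4 and 22.2 FPKM in the mutants. Abcc4, which also exports cyclic nucleotides and prostaglandins, was at 3.35 and 3.50 in wild type against 3.12 and 2.92 FPKM in the mutants, lower in both. Abcc1, a glutathione conjugate pump, was at 3.61 and 3.02 against 3.14 and 2.76 FPKM. Abcc3 was at 1.32 and 1.32 against 1.58 and 1.12 FPKM. Their log2 differences ran from -0.14 for Abcc4 to 0.08 for Abcc5, and every limma interval included 0. Over the 7 pumps, 3 were lower and 0 higher in both mutants, a share of 42.9% without overlap beside 32.1% of all genes (19.6% lower and 12.5% higher). Their median was -0.12 where all genes tested had -0.01. Summed FPKM of the pumps was 94.1 and 91.9 in wild type and 75.9 and 67.9 in the mutants, a gap carried by Abcb1a and Abcg2.

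Housekeeping members were taken as the 11 genes of translation, mitochondria, peroxisomes and lysosomes, and their differences held both signs. Of these, 2 were higher and 2 lower in both mutants and the other 7 overlapped, so 36.4% were without overlap, near the 32.1% of all genes. Their median log2 difference was 0.06. Leaving out mutant 2 turned that median to -0.085, and leaving out mutant 1 brought it to 0.18. Abce1, the factor that splits ribosomes after termination, was the steadiest. It was at 31.2 and 29.8 in wild type against 30.3 and 28.8 FPKM in the mutants, a log2 difference of -0.05 with an interval of -0.40 to 0.31. Abcf3, a partner of the amino acid sensing machinery, was at 21.1 and 20.2 against 19.4 and 21.4 FPKM. By contrast, Abcf1, which binds initiation factor eIF2, was at 21.6 and 26.4 FPKM in the 2 wild types, against 21.7 and 32.6 in mutant 1 and mutant 2, respectively. Abcf2 was at 29.4 and 36.8 against 28.1 and 41.8 FPKM. For both, the second library of each group was the higher, and the groups overlapped.

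**Figure D3:**
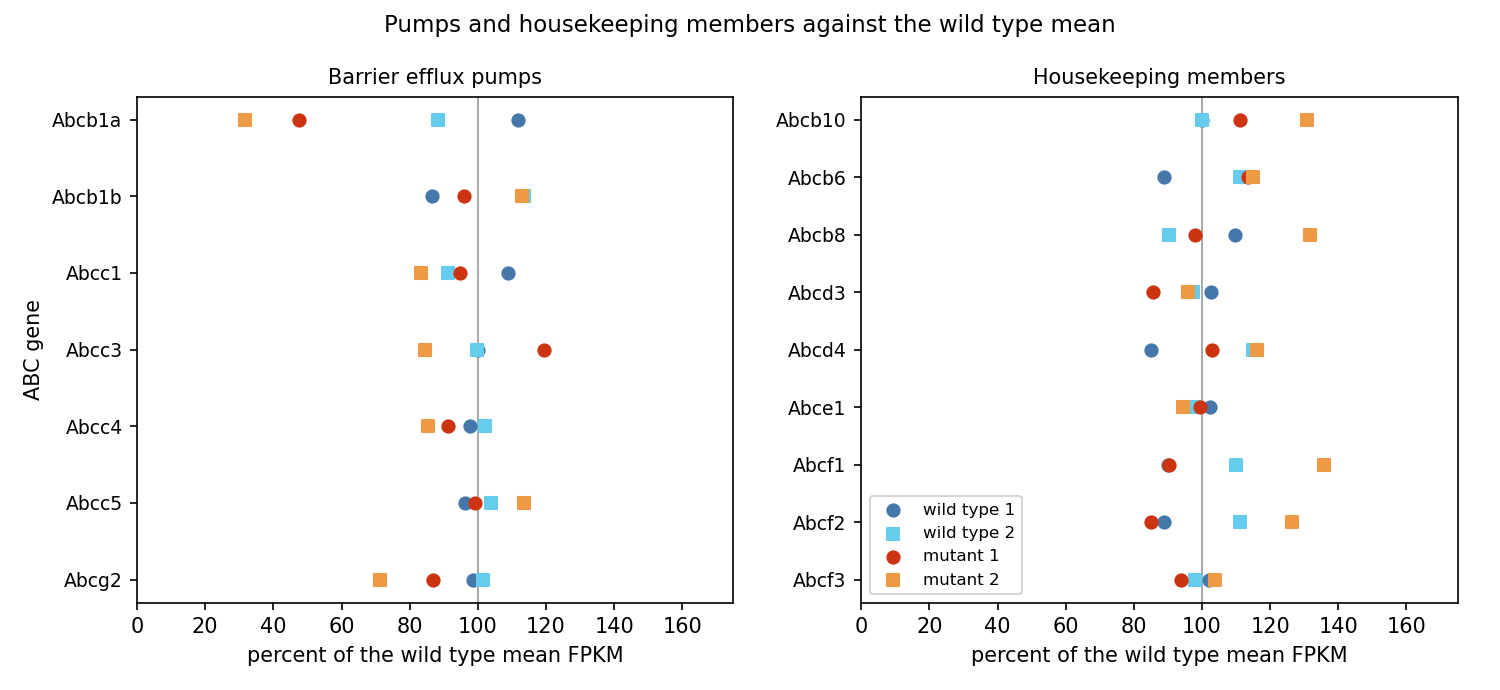
FPKM of barrier efflux pumps (left) and housekeeping members (right) in the 4 libraries, as a percentage of that gene's wild type mean, with a grey line at 100. Abcb1a was at 47.4 and 31.6 percent in mutant 1 and 2, Abcg2 at 86.7 and 71.4 percent, and the housekeeping members shown lay between 85.0 and 135.9 percent in the mutants.

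Of the mitochondrial and porphyrin transporters, Abcb10 and Abcb6 were higher in both mutants. Abcb10, which works in haem synthesis in the inner membrane, was at 5.51 and 5.52 in wild type against 6.13 and 7.21 FPKM in the mutants. Its log2 difference was 0.23, and 0.13 without mutant 2. Abcb6, a porphyrin transporter, was at 5.46 and 6.84 against 6.98 and 7.07 FPKM, also higher in both (0.17). Abcb8, of the mitochondrial inner membrane, overlapped at 15.5 and 12.7 against 13.8 and 18.6 FPKM. All 6 measured erythrocyte marker genes were higher in both mutants, where 12.5% of all genes were. The 6 summed to 3401 and 3193 FPKM in wild type and 6377 and 6506 FPKM in the mutants. Red cell precursors use Abcb6 and Abcb10 for haem, and the part of blood RNA in their values was not tested.

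Among peroxisomal and lysosomal members, Abcd3, which imports branched-chain and bile acid precursors into peroxisomes, was the most abundant. It was at 26.8 and 25.3 in wild type against 22.3 and 25.0 FPKM in the mutants, lower in both by a small margin (log2 difference -0.14). Abcd2, an importer of fatty acids into peroxisomes, was at 3.05 and 4.62 against 3.46 and 4.81 FPKM, and Abcd4, which helps release cobalamin from lysosomes, at 4.51 and 6.09 against 5.46 and 6.16 FPKM. In Abcd2 and Abcd4, wild type 2 and mutant 2 were each above the first library of their group.

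Abca4 entered the matrix only because wild type reached 1 FPKM, and with both mutants under that level it could enter only as lower in the mutants, so its values are given as a description. Abca4, which clears retinoids from photoreceptor discs and is best known from the retina, was at 1.72 and 1.25 FPKM in the 2 wild types, against 0.558 and 0.297 in mutant 1 and mutant 2, respectively. Both mutants were below both wild types, and all 4 levels were low. The means were 1.48 ± 0.330 and 0.427 ± 0.184 FPKM (SD, n = 2 each), 3.47-fold lower in the mutants. On the log2(FPKM + 1) scale, which understates changes at this level, the difference was -0.80 (standard error 0.21, limma adjusted p = 0.790). With a pseudocount of 0.1 it was -1.62. In the authors' deposited table the log2 change is -1.80 and q is 0.0182. Abca4 (ENSMUSG00000028125.14) lies on chromosome 3 at 122044443 to 122180123, plus strand, 229 kb from Abcd3, whose log2 difference was the -0.14 given above.

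The Abca6-like genes, a row of 5 on chromosome 11 from Abca8b at 109932190 to the end of Abca5 at 110337716, did not differ together. Abca8a was at 53.4 and 49.6 in wild type against 60.6 and 52.8 FPKM in the mutants. Its neighbour Abca9, 4.77 kb away, was at 28.9 and 21.2 against 24.0 and 16.8 FPKM. Abca5 was at 3.93 and 5.48 against 3.69 and 3.99 FPKM, Abca8b at 6.12 and 7.08 against 8.26 and 7.08 FPKM, and Abca6 at 6.91 and 7.20 against 7.47 and 7.75 FPKM. Only Abca6 of the 5 was without overlap, with both mutants higher by a log2 difference of 0.10. These genes encode little-studied lipid transporters.

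The exporters of cholesterol and phospholipid were mostly somewhat higher in mutant 2. Abcg1, which loads sterol onto lipoproteins, was at 5.75 and 6.75 in wild type against 7.39 and 8.22 FPKM in the mutants, higher in both (log2 difference 0.28, interval -0.11 to 0.67). Abcg4, its relative in neural tissue, was at 3.75 and 4.50 against 4.31 and 6.95 FPKM, and Abca7, a phospholipid transporter, at 6.98 and 8.17 against 8.09 and 11.7 FPKM. Abca1, the main exporter of cholesterol to apolipoproteins, went the other way in mutant 2, at 6.36 and 7.68 against 7.45 and 4.92 FPKM. The 5 measured members had a median of 0.28 and 4 of them overlapped. Without mutant 2 the differences of Abcg4 and Abca7 were 0.05 and 0.09, and that of Abcg1 was 0.21.

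The remaining members were Abca2, Abca3, Abcb9, Abcc9 and Abcc10. Abca2, a transporter of lysosome-related membranes in neurons and myelinating glia, was at 18.5 and 17.6 in wild type against 19.7 and 24.8 FPKM in the mutants, higher in both (log2 difference 0.28, and 0.12 without mutant 2). Schwann cell and myelin markers were high in the same library, with a summed level of 10430 and 8341 FPKM in wild type, 10290 in mutant 1 and 21490 in mutant 2. Of these markers, 6 of 10 were higher in both mutants, where 12.5% of all genes were. Mutant 1 cleared the higher wild type only narrowly for Mal (207 against 205 FPKM), Mbp, Prx and Pllp, and by more for Pmp22 and Egr2. The part of these markers in Abca2 was not tested. Abca3, the lung surfactant lipid transporter, was at 9.93 and 10.4 against 8.49 and 10.6 FPKM, and Abcb9, a lysosomal peptide transporter, at 5.35 and 6.19 against 5.64 and 8.34 FPKM. Abcc10 was at 1.77 and 1.16 against 1.62 and 2.07 FPKM. Abcc9, the sulfonylurea receptor of muscle and pericyte potassium channels, was at 1.42 and 2.25 against 1.81 and 2.18 FPKM, and its channel pore Kcnj8 was at 4.52 and 4.16 against 4.18 and 4.06 FPKM. All of these but Abca2 overlapped.

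Abcb1a is known from the capillaries of nerve and brain and from the meninges, so vessel markers were read beside it here and meningeal markers further below. Of 11 endothelial markers, 2 (Cdh5 and Flt1) were lower in both mutants and 0 higher. That was 18.2% without overlap, beside 32.1% of all genes (19.6% lower and 12.5% higher). The markers had a median log2 difference of -0.13, and none was listed at 0. The sum of the markers was 152 and 170 FPKM in wild type and 147 and 140 FPKM in the mutants. Egfl7, the largest part of it, was at 44.7 and 53.6 in wild type against 46.6 and 56.4 FPKM in the mutants. Cdh5 was at 27.5 and 26.9 against 21.1 and 13.6 FPKM, and 9 of the 11 overlapped. The sum weighs each marker by its FPKM, so a ratio to it depends on which marker is large. Abcb1a per 100 FPKM of summed endothelial markers was 15.4 and 10.9 in wild type and 6.74 and 4.74 in the mutants. The part of vessel content in the Abcb1a values was not tested. Abcg2 on the same scale was 28.0 and 25.8 in wild type and 25.4 and 22.0 in the mutants. Of 9 mural cell markers, 1 was lower in both mutants and 0 higher (11.1% without overlap).

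The solute carriers of blood-tissue barriers include the uptake partners of these pumps, and the list was drawn up knowing that Slc22a6 and Slc6a13 were low in the mutants. Of 13 measured, 6 were lower and 2 higher in both mutants, with a median log2 difference of -0.20 (61.5% without overlap, beside 32.1% of all genes). Slc22a6, an organic anion transporter, was at 17.2 and 13.3 in wild type against 3.62 and 2.94 FPKM in the mutants. Slc22a8, the related transporter, was at 39.1 and 29.6 against 11.7 and 5.91 FPKM, and the GABA transporter Slc6a13 at 77.9 and 67.5 against 32.1 and 26.7 FPKM. Each of these 3 was lower in both mutants, without overlap. The 2 carriers higher in both mutants were Slc2a1 and Slco1c1. Slc2a1 was at 39.3 and 37.1 in wild type against 48.0 and 41.5 FPKM, and Slco1c1 at 1.88 and 1.43 against 2.09 and 1.91 FPKM. The other 5 overlapped where not among the 6 lower. The smallest limma adjusted p in the list was 0.175, for Slc22a6. Of 12 fibroblast and meninges markers, 6 were lower in both mutants (Aldh1a2, Crabp2, Foxc1, Igf2, Slc6a13 and Zic1) and 0 higher, with a median of -0.75 and with sums of 6130 and 4929 FPKM in wild type and 5875 and 3117 FPKM in the mutants. None of the 12 was listed at 0, and their part in the Abcb1a and Abca4 values was not tested.

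**Figure D4:**
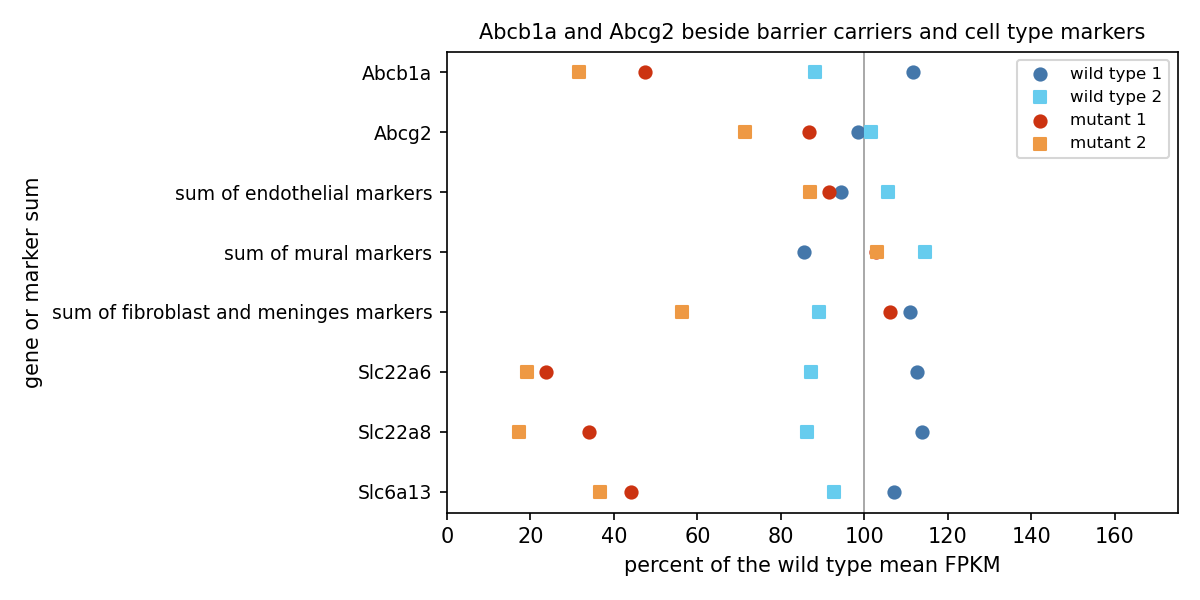
Levels in the 4 libraries as a percentage of the wild type mean, for Abcb1a, Abcg2, the summed endothelial, mural, and fibroblast and meninges markers, and 3 solute carriers. These carriers had the largest absolute moderated t of the 13 on their list, where 2 others were higher in both mutants. In mutant 1 and 2, Abcb1a was at 47.4 and 31.6 percent, Slc6a13 at 44.2 and 36.8 percent and the endothelial sum at 91.6 and 87.0 percent. The fibroblast and meninges sum, at 106.2 and 56.4 percent, is mostly Dcn. It does not follow the markers of that list that were lower in both mutants. Egfl7 is the largest part of the endothelial sum.

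The partner lists are read against the 32.1% of all genes without overlap. Of 7 measured regulators of drug response genes, 4 were lower and 0 higher in both mutants (57.1% without overlap, median -0.19), led by the glucocorticoid receptor gene Nr3c1 (log2 difference -0.41), the oxidative stress regulator Nfe2l2 (-0.29) and Hif1a (-0.24). Of 13 genes of cholesterol efflux and its nuclear receptor LXR, 2 were lower and 1 higher (23.1%). The cholesterol esterifying enzyme Soat1 was at 14.0 and 11.3 in wild type against 9.15 and 6.52 FPKM in the mutants, the LXR target Mylip had a log2 difference of -0.34, and the plasma esterifying enzyme Lcat of 0.39. No gene of either list passed over all genes (smallest limma adjusted p = 0.994).

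Among the partners of the housekeeping members, 4 of 9 genes of ribosome recycling and eIF2 were lower in both mutants and 0 higher (44.4%, median -0.01), with Eif2s3x at -0.42, Eif2s1 at -0.20 and Etf1 at -0.12. Eif2s3x is X-linked. Of 9 peroxisome genes 1 (11.1%) was lower, Pex3 (-0.10), with Cat at 0.22 overlapping. Of 13 iron-sulfur and haem genes 1 (7.7%) was higher, the mitochondrial iron importer Slc25a37. It was at 10.3 and 6.89 in wild type against 13.6 and 10.4 FPKM in the mutants, with Alas1 (0.21) and Ppox (0.16) overlapping. Of the ABC proteins that carry other symbols, the peptide transporters of antigen presentation Tap1 and Tap2 had log2 differences of 0.27 and 0.11, and both mutants were above both wild types for Tap2.

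Promoter sequence of the members was read as a description. RefSeq windows on GRCm38.p6 matched 25 of the 35 members, and for 24 the window's start lay within 500 bases of the GENCODE start. In the 250 bases before the start, the GC box GGGCGG was found on either strand in 15 of these 24 (62.5%), against 32.7% of 32851 RefSeq windows of the same length. CCAAT was found in 5 (20.8%, against 33.8%) and TATAAA in 3 (12.5%, against 12.4%). The median GC content was 61.6% in the members and 52.4% in all windows. Unlike the members' windows, the full set was not limited to expressed genes or to starts near a GENCODE start. These contrasts are therefore not read as a trait of the family. Of 7 housekeeping members 4 held the GC box, and of 4 barrier pumps 2 did. These are letter matches and not binding sites. The windows of Abca4, whose levels were given above, and Abce1, the steadiest, are shown 5′ to 3′ on the strand of the gene, with matches in capitals.
Abca4, chr3:122044210-122044459, plus strand: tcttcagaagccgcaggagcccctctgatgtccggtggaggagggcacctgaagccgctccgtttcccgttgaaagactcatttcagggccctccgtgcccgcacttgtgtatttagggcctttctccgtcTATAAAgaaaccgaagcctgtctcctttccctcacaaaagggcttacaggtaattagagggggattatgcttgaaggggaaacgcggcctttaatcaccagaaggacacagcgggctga
Abce1, chr8:79711741-79711990, minus strand: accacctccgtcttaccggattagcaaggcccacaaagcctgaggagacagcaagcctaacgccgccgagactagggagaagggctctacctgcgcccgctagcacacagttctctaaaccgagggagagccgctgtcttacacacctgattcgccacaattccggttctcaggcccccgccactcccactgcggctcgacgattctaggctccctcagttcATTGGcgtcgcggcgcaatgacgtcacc
Abca4 held TATAAA with its first base 119 bases before the start, and Abce1 held CCAAT on the opposite strand (read as ATTGG) from 28 bases before it. Neither window held GGGCGG.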

How the data were processed

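The data were bulk RNA sequencing of dorsal root ganglia in 2 wild type and 2 mutant samples, each placed by its own title. The authors deposited FPKM values for 14405 genes, and a table of called genes with FPKM, a log2 fold change, a test statistic (a score), a p-value and a q-value, in Cuffdiff's column format per the file headers. The submitters' processing notes name mm10, Cufflinks 2.2.1, TopHat2 2.1.2 and CASAVA. Settings, library scaling and strandedness: not given in the sources used here. Since FPKM hold no counts, depth is unknown and intervals for counting error could not be had. Summed FPKM per sample ran from 620018 to 686830.

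log2(FPKM + 1) was fitted with limma 3.58.1 in R 4.3.3, using a mean-dependent prior for the variance (2 residual and 3.44 prior degrees of freedom). The 14040 genes whose wild type or mutant mean reached 1 FPKM were tested and adjusted by Benjamini and Hochberg. The script was tested on simulated data, with the spread shuffled over genes and with changes larger than that of any member. Such a test does not give the power at the sizes found here. Lists are described by counts and medians, with no test of a list. The p-values reflect only how far these 4 samples vary, and that variation may be technical. The members, the lists and the rule for named genes were chosen with earlier results of these data known. That rule takes Prdm12, Avil, the members of 5 function lists, the 10 members with the largest absolute moderated t, the 2 most abundant of each subfamily, and from each partner list the 3 genes with the largest absolute moderated t. A few of these genes are not reported here. Other genes with values were chosen after their values were seen. The alternatives were another pseudocount, other limits on low values, 2 rescalings, a replicate block, each library left out, and Abcb1a and Abcb1b summed. Positions are from GENCODE M21 on GRCm38, the assembly of mm10, and promoter sequences from RefSeq on GRCm38.p6.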

Additional observations from a re-analysis of the deposited data

How the results depend on the processing

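FPKM without depth and 2 samples per group limit every value here. With a replicate block, 61 genes passed over all genes and 1 member did, Abcb1a (limma adjusted p = 0.0346). The samples share only a number: the deviations of same-numbered samples correlated at 0.481 over 14040 genes, and the labels name no shared source. Under the other settings with all samples, 0 members and 0 genes passed. Without the block, the adjusted p of Abcb1a ran from 0.142 to 0.942 with a library left out, where the single sample left in a group is assumed to vary like the other group. With each library left out, 0 to 5 genes passed (5 without wild type 1) and 0 members. The family median ran from -0.024 to 0.11, that of the pumps from -0.17 to -0.055, and that of the housekeeping members from -0.085 without mutant 2 to 0.18 without mutant 1. With a minimum of 5 FPKM the pump median was -0.34, over the 3 pumps left. Summing Abcb1a and Abcb1b left it at -0.13. After quantile normalization Abcf3 was at 0.012. With a library left out, 14 members changed sign, none with a difference over 0.222 from all samples: Abca1 ran from -0.43 to 0.079, Abca3 from -0.23 to 0.063, Abcb1b from -0.072 to 0.15, Abcb4 from -0.19 to 0.44, Abcb8 from -0.021 to 0.38, Abcb9 from -0.024 to 0.47, Abcc3 from -0.13 to 0.15, Abcc5 from -0.009 to 0.18, Abcc9 from -0.12 to 0.30, Abcd2 from -0.14 to 0.33, Abcd4 from -0.061 to 0.30, Abcf1 from -0.14 to 0.43, Abcf2 from -0.22 to 0.34 and Abcf3 from -0.085 to 0.051. The other 21 kept their direction, which was fixed beforehand for those without overlap between the groups. Counts without overlap, an alternative chosen after seeing the data, were 8 to 18 higher and 10 to 12 lower, since fewer samples must be cleared. The causes of these changes were not tested.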
